A study of Mus musculus with 6 samples.

Results

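Small leucine-rich proteoglycans (SLRPs) are secreted matrix proteins built around a run of leucine-rich repeats. The members described here are Podn, Podnl1, Dcn, Bgn, Lum, Fmod, Ogn, Omd, Prelp and Aspn, taken from the deposited expression table by gene name, 10 of its 49548 genes. They were put forward because of how they differed in the comparison described here, between amisulpride-treated and untreated cells, so their levels and fold changes in it are given as a description with no test.

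SLRPs bind fibrillar collagens and help to set the width and spacing of the fibrils. Many carry glycosaminoglycan chains: chondroitin or dermatan sulfate on decorin and biglycan, keratan sulfate on fibromodulin, lumican and osteomodulin. They also hold growth factors of the TGF-β and BMP families in the matrix, and fragments or soluble forms of some members can engage Toll-like receptors. In joints they are made by fibroblasts, tendon cells and chondrocytes, and proteases released in arthritis cut several of them.

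The cells were cultured synovial fibroblasts (SFs), the connective tissue cells of the joint lining, from the ankle joints of mice with a human TNF transgene (hTNFtg). Such mice develop inflammatory arthritis, and both groups carried the transgene. One group of 3 libraries had no treatment per the labels and the other group of 3 was given 500 μM amisulpride, an antagonist of dopamine and serotonin receptors, for 48 h. The mice were 8 weeks old, and CD45+ cells had been depleted in culture, per the study's methods, which name vehicle for the controls. Wild-type SFs were not analysed here, so a level can be set only against that of untreated hTNFtg SFs.

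Reads came from the 3′ ends of transcripts. Values are normalised counts, taken here to be read counts divided by 1 factor per library and rounded. Depth was approximately 2.52 to 4.71 M reads per library, with amisulpride replicate 3 the shallowest and untreated replicate 1 uncertain, and a floor of 3 reads stood at 2.50 to 5.37 normalised counts. Of 10 fibroblast markers, 9 were above the floor in every library, summing to 41215 to 51046 normalised counts in untreated and 44788 to 75437 in treated SFs; Fap fell under it in untreated replicate 2. Of 10 chondrocyte markers found, only Sox9 was above the floor in every library, Col9a1 and Matn1 were at 0 throughout, and Acan was at 0 in 5 of the 6 libraries. Of 11 leukocyte markers, 10 were above the floor in every library, with sums of 2410 to 4154 and 2268 to 4170, led by Lyz2, so RNA of myeloid cells was present in both groups. Sums for tendon markers were 1655 to 2576 and 2089 to 3624, with 4 of 5 above the floor in every library, and those for mural cell markers 251 to 399 and 189 to 266. The osteoblast list summed to 81 to 123 and 76 to 105, the endothelial list to 2 to 13 and 1 to 15, the muscle list to 14 to 47 and 11 to 32, and the Schwann cell list to 30 to 47 and 34 to 47. In the adipocyte list, which summed to 303 to 324 and 128 to 229, nearly all of the value was Fabp4, and Adipoq, Cfd and Lep were at 0 in all libraries. The part of any of these cells in the results was not tested, and fewer cells of a type cannot be told apart from less RNA per cell.

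The 4 members that were higher with amisulpride in every treated library, as described further on, were Podn, Ogn, Prelp and Aspn. Their promoters are shown because these members moved in one direction from 3 chromosomes. The windows run from 250 bases before to 50 bases after the annotated start, 5′ to 3′ on the gene's strand, from RefSeq for GRCm38.p6, the build of the files (mm10). Capitals mark matches, on either strand, to the letters of a TATA box (TATAAA) or a GC box (GGGCGG). The coordinates are chr4:108031905-108032204 (minus strand) for Podn, chr13:49607765-49608064 (plus) for Ogn, chr1:133921352-133921651 (minus) for Prelp and chr13:49544193-49544492 (plus) for Aspn.
Podn: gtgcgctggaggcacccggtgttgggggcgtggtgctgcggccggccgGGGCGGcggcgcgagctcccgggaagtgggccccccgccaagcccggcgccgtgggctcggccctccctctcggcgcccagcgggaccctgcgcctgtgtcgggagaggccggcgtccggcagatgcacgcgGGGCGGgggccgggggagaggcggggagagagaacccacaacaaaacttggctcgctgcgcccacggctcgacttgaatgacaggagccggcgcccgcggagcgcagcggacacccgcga
Ogn: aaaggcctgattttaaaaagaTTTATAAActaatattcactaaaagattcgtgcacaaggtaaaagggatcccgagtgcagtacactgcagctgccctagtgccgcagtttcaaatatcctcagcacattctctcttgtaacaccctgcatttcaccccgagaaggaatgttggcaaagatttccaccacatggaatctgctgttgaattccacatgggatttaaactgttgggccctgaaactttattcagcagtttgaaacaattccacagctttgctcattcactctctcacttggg
Prelp: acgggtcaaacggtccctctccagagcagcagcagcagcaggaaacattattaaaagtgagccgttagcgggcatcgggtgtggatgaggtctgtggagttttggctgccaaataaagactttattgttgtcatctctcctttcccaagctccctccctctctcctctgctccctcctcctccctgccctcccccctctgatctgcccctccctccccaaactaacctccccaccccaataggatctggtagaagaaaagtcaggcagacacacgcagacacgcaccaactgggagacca
Aspn: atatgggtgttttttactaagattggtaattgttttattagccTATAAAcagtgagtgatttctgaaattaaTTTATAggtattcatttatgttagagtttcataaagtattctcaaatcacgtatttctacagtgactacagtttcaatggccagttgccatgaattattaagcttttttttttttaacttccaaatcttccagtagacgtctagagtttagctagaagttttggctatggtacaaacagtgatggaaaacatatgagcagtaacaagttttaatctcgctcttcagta

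These 4 promoters differed widely in base composition. The Podn window held 77% G and C, the Prelp window 55.3%, the Ogn window 42.3% and the Aspn window 31%, against a median of 53% over 32544 mouse promoter windows of the same length. The Podn window shown had 2 GC boxes, a motif present in 35.9% of all windows, and Prelp had neither motif. Ogn had 2 overlapping TATA box matches, one on each strand, and Aspn 2 separate ones, a motif present in 13.6% of all windows; those of Ogn began 229 bases before the start and those of Aspn 207 bases before it, measured to the first match. RefSeq entries were held for 7 of the 10 members, with 8 windows in all, since Podn has a second one. That second Podn window, chr4:108030937-108031236, held 63% G and C, with 0 GC boxes and 0 TATA boxes. No window was held for Podnl1, Dcn and Lum. Of these 8 windows, the AP-1 letters TGANTCA (7.79% of all windows) were found in 0, and the C/EBP letters TTGCNNAA (10.8%) in 1, that of Fmod. Bgn had 3 GC box matches, some of them overlapping. A match is a run of letters and not a measured binding site, and none of the motifs searched was common to the 4 promoters.

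All 10 members were above 10 normalised counts in every library, so each was tested in the fit over 12614 genes and none entered through 1 group only. On the scale per kb of the gene model, untreated SFs ranked Bgn first at 1741 ± 216 normalised counts per kb (SD, n = 3), followed by Fmod at 940.1 ± 348, Dcn at 321 ± 208, Prelp at 221 ± 118, Lum at 162 ± 108, Ogn at 99.96 ± 38.3, Podnl1 at 75.3 ± 33.8, Aspn at 75.3 ± 13.8, Omd at 14.0 ± 4.14 and Podn at 13.3 ± 2.68. Bgn and Fmod stood apart by more than their SDs, whereas Dcn, Prelp and Lum overlapped within theirs. Lum and Ogn, the trio of Ogn, Podnl1 and Aspn, and the pair of Omd and Podn did so as well. With amisulpride the order per kb was Bgn at 1621 ± 104, Fmod at 1330 ± 420, Prelp at 547 ± 145, Dcn at 347 ± 187, Ogn at 332 ± 100, Aspn at 158 ± 50.4, Lum at 84.3 ± 63.5, Podn at 61.9 ± 16.3, Podnl1 at 25.5 ± 9.02 and Omd at 25.3 ± 9.20. Among these, only the steps from Fmod to Prelp, from Ogn to Aspn and from Podn to Podnl1 exceeded the SDs of the neighbours. Podn thus moved from the tenth place to the eighth, Ogn and Aspn each moved ahead of Lum, and Prelp and Dcn exchanged places within their SDs. A 3′ kit gives reads that are not expected to scale with transcript length, so this order holds only for the scale per kb.

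The fold changes of the 10 members spread widely. Amisulpride-treated SFs had higher mean log2 levels of 7 members and lower ones of 3, with a median log2 fold change of 0.66 on the log2(normalised count + 1) scale, against 0.00 over all genes tested. Without overlap between the groups, Podn, Ogn, Prelp and Aspn were higher and Podnl1 was lower. This made 4 members higher, 1 lower and 5 of 10 in all, where the groups of 7.8%, 8.66% and 16.5% of all genes did not overlap. The same 5 passed the thresholds that the study applied to single genes, a log2 fold change of 1 or more in either direction and an unadjusted p under 0.05 (5.7% of all genes with limma), and 1, Podn, had an adjusted p under 0.05 (0.285% of all genes). With the replicate number as a block, Lum also passed the study thresholds, which made 6 members (6.61% of all genes, and 3.43% for the 2 lower members), and 4 members, Podn, Podnl1, Ogn and Prelp, had an adjusted p under 0.05 (2.08% of all genes). Since the members were chosen on this comparison, nothing follows from these counts.

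**Figure D1:**
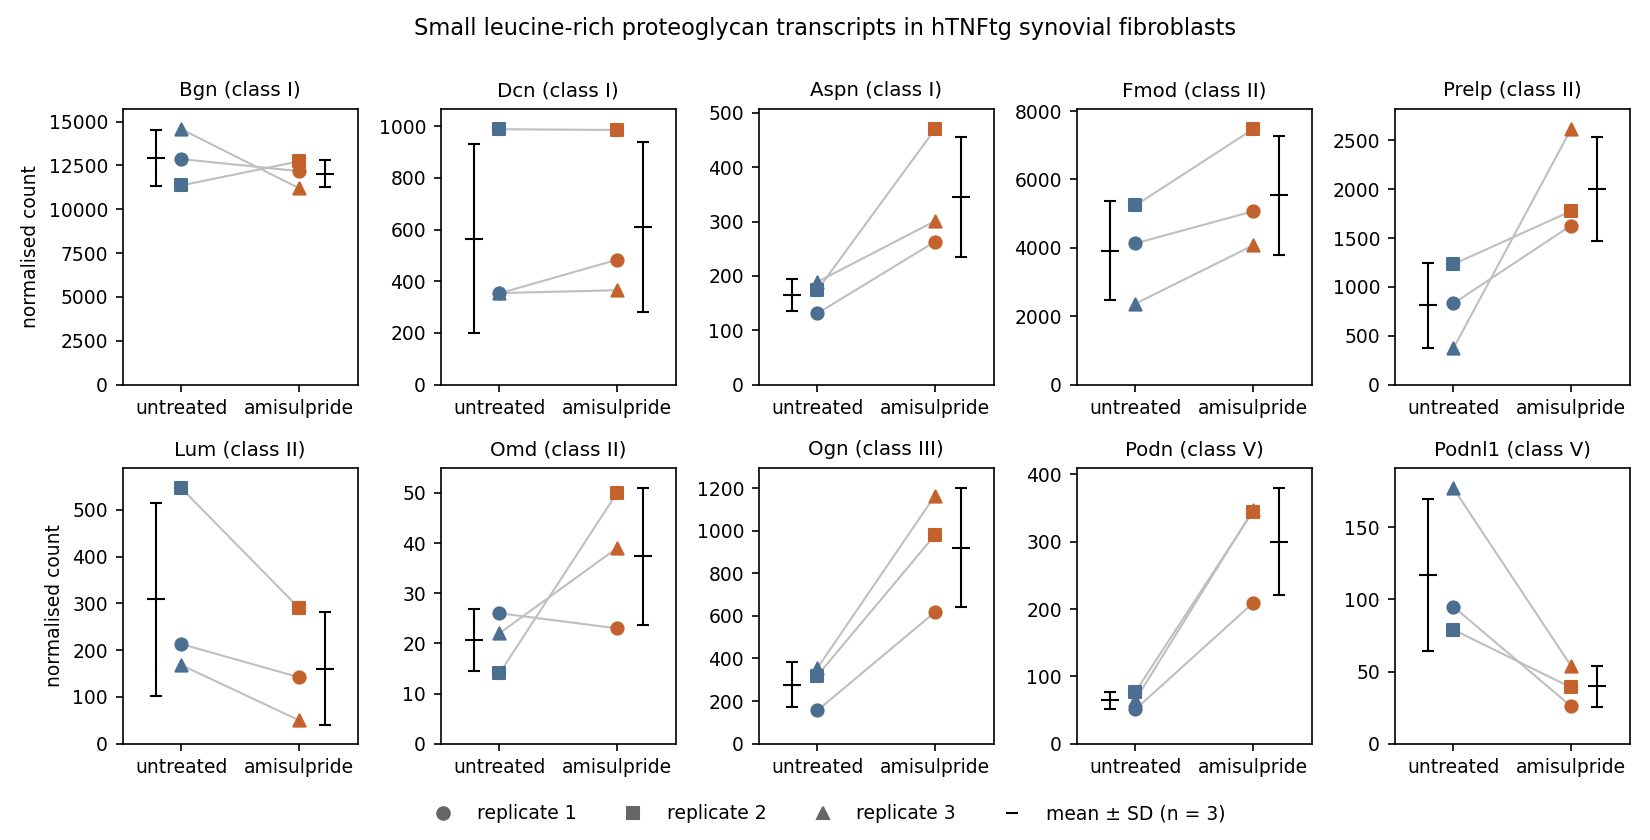
Normalised counts (y axis, linear from 0) of each member in untreated and amisulpride-treated hTNFtg SFs; symbols are replicate numbers, grey lines join libraries of the same number, and bars are the mean ± SD of 3 libraries. Podn, Ogn, Prelp and Aspn are higher in every treated library than in any untreated one, Podnl1 is lower, and the other 5 members overlap.

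Class V, the podocans, held the largest change in each direction among the members. Podn encodes podocan, a matrix protein first found in the kidney glomerulus that binds type I collagen (ENSMUSG00000028600, chr4:108014791-108096445, minus strand). Untreated libraries held 51, 77 and 65 normalised counts and treated libraries 209, 345 and 347. The lowest treated value thus lay well above the highest untreated one, with treated replicates 2 and 3 nearly alike. The mean went from 64.3 ± 13.01 to 300.3 ± 79.1 (SD, n = 3), and the log2 fold change was 2.19 ± 0.29 (SE), and the level was 4.10, 4.48 and 5.34 times that of the untreated library of the same number. Leaving out any 1 library kept the log2 fold change between 2.03 and 2.43.

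Podnl1, the podocan-like gene on chromosome 8 (ENSMUSG00000012889, chr8:84125989-84132527, plus strand), went the other way. It stood at 95, 79 and 177 normalised counts in untreated and 26, 39 and 54 in treated libraries. All treated values were below all untreated ones, and untreated replicate 3 was the highest of the 6. Its mean was 117 ± 52.6 in untreated and 39.7 ± 14.0 in treated SFs (SD, n = 3), and the log2 fold change was -1.51 ± 0.38 (SE). Without untreated replicate 3 this was -1.17. By mean per kb, Podnl1 was above Podn in untreated and below it in treated SFs.

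Ogn is the class III member and encodes osteoglycin, or mimecan, a small proteoglycan of bone, cornea and vessel walls (ENSMUSG00000021390, chr13:49608071-49624500, plus strand). Its values were 156, 320 and 355 normalised counts in untreated and 618, 980 and 1165 in treated SFs. Replicate 1 was the lowest of both groups, and the lowest treated value exceeded the highest untreated one. The means of 277 ± 106 and 921 ± 278 (SD, n = 3) gave a log2 fold change of 1.77 ± 0.35 (SE). Within replicate numbers the level was 3.96, 3.06 and 3.28 times the untreated one, a narrower spread than that of the values themselves, and with the replicate block the SE was 0.25.

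Among the class II members, which mostly carry keratan sulfate, the changes differed in direction. Prelp, whose product has an arginine- and proline-rich end that binds heparan sulfate and links basement membranes to collagen (ENSMUSG00000041577, chr1:133910304-133921414, minus strand), stood at 830, 1232 and 370 normalised counts in untreated and 1628, 1775 and 2614 in treated libraries. The groups did not overlap, but replicate 3 was the lowest untreated and the highest treated library. The means were 811 ± 431 and 2006 ± 532 (SD, n = 3), and the log2 fold change was 1.44 ± 0.40 (SE). The level with amisulpride was 1.96, 1.44 and 7.06 times that of the untreated library of the same number, so replicate 3 carried much of the difference. Without untreated replicate 3 the log2 fold change was 0.96, under the study threshold.

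Fmod encodes fibromodulin, which binds collagen fibrils in tendon and cartilage (ENSMUSG00000041559, chr1:134037254-134048277, plus strand). By mean per kb it was second to Bgn in both groups. Its values were 4129, 5238 and 2365 normalised counts in untreated and 5067, 7467 and 4069 in treated SFs. The groups overlapped, although each treated library was above the untreated one of the same number, by 1.23, 1.43 and 1.72 times. The log2 fold change was 0.53 ± 0.35 (SE), and 0.28 was the SE with the block.

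Lum encodes lumican, best known for the order of corneal collagen fibrils (ENSMUSG00000036446, chr10:97565501-97572703, plus strand). Values were 213, 546 and 168 normalised counts in untreated and 142, 290 and 50 in treated libraries. The groups overlapped, with replicate 2 highest in both, and each treated library was below its untreated counterpart, at 0.667, 0.531 and 0.298 times its level. The log2 fold change was -1.07 with an SE of 0.58, or of 0.28 with the replicate block, under which it passed the study thresholds. As single libraries were left out it ranged from -1.66 to -0.41. The value was -1.66 without amisulpride replicate 2, where it passed the study thresholds also with no block, and -0.41 without amisulpride replicate 3, the shallowest library. Leaving out untreated replicate 3 gave -1.41, and leaving out untreated replicate 2 gave -0.57.

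Omd encodes osteomodulin, a keratan sulfate proteoglycan of mineralised bone matrix (ENSMUSG00000048368, chr13:49582766-49592609, plus strand). Its values were low, with 26, 14 and 22 normalised counts in untreated and 23, 50 and 39 in treated SFs. Replicate 1 was slightly lower with amisulpride and replicates 2 and 3 were higher, so that the groups overlapped and the log2 fold change was 0.80 ± 0.42 (SE). It was 1.10, past the study thresholds, without amisulpride replicate 1.

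Of class I, which holds the chondroitin and dermatan sulfate proteoglycans, Aspn was the member without overlap. It encodes asporin, which binds collagen and TGF-β and carries a run of aspartate residues in place of a glycosaminoglycan chain (ENSMUSG00000021388, chr13:49544443-49567565, plus strand). Values were 131, 174 and 189 normalised counts in untreated and 263, 470 and 301 in treated SFs. Every treated value exceeded every untreated one, and treated replicate 2 was the highest. The means of 165 ± 30.1 and 345 ± 110 (SD, n = 3) gave a log2 fold change of 1.03 ± 0.29 (SE), close to the study threshold of 1: it was 0.88 without untreated replicate 1, 0.79 without amisulpride replicate 2 and 0.96 with all libraries scaled to the same total.

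Dcn and Bgn, the class I members with glycosaminoglycan chains, had fold changes near 1. Dcn encodes decorin, which coats type I collagen fibrils and binds TGF-β (ENSMUSG00000019929, chr10:97479500-97518162, plus strand). It stood at 353, 988 and 354 normalised counts in untreated and 483, 985 and 365 in treated SFs, so that replicate 2 was far above the other 2 in both groups and the groups overlapped fully. The log2 fold change was 0.16 ± 0.44 (SE), ranging from -0.25 to 0.66 as single libraries were left out, and thus with no fixed direction. A difference of this size cannot be told from the spread between these libraries.

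Bgn encodes biglycan, which in soluble form is a ligand of Tlr2 and Tlr4 (ENSMUSG00000031375, chrX:73483602-73495933, plus strand). By mean per kb it was the most abundant member in both groups. Its values were 12858, 11359 and 14561 normalised counts in untreated and 12170, 12729 and 11197 in treated SFs. The groups overlapped, and the means were 12926 ± 1602 and 12032 ± 775 (SD, n = 3). The log2 fold change was -0.10 ± 0.28 (SE) and reached -0.25 with quantile normalisation. Of 841 words of 30 bases from the ends of Bgn transcripts, 10 also occurred in annotated transcripts of other genes, 1462 in number; of the other members, only Podn shared any such word.

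**Figure D2:**
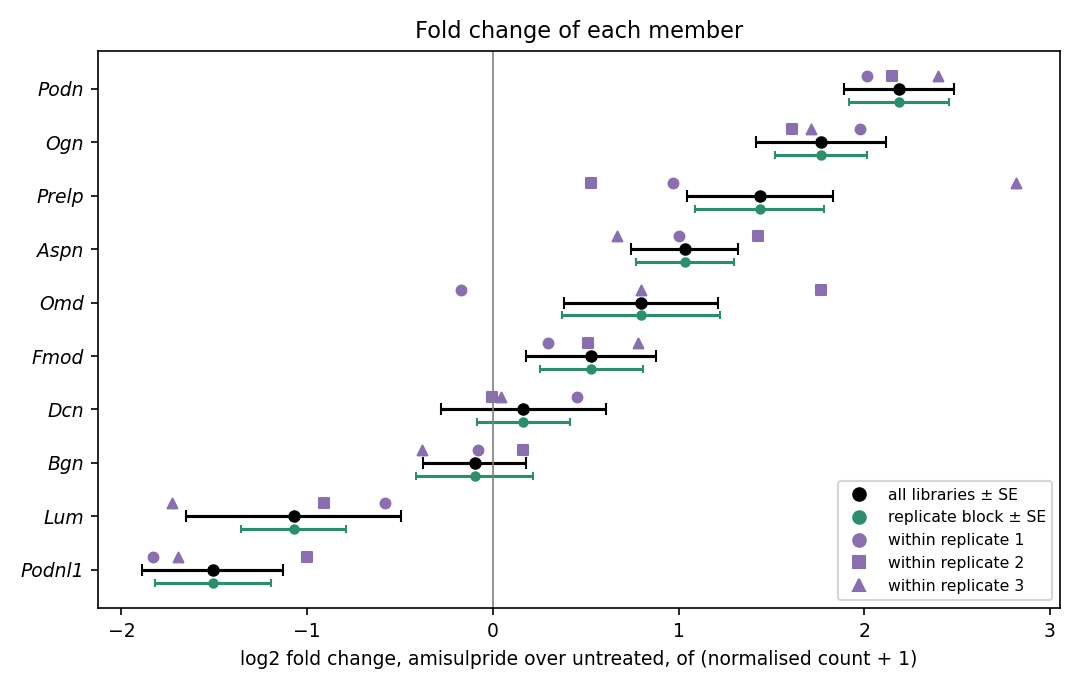
Log2 fold change, amisulpride over untreated, of (normalised count + 1) for each member (x axis), with the fit over all 6 libraries (black, ± SE), the fit with the replicate number as a block (green, ± SE) and the difference within each replicate number (purple symbols). Podn, Ogn, Prelp, Aspn and Fmod are above 0 within all 3 numbers, Podnl1 and Lum below 0, and the block narrows the SE of Lum from 0.58 to 0.28.

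Within the 3 replicate numbers, 5 members were higher each time, namely Podn, Ogn, Prelp, Aspn and Fmod, and 2, Podnl1 and Lum, were lower each time. The direction was the same in all 3 numbers for 34.7% of all genes. Libraries of the same number shared part of their spread. Dcn, Lum and Fmod were highest in replicate 2 of both groups. Of the 4 tendon markers above the floor in every library, Tnmd, the tenomodulin gene, was also highest in replicate 2 of both groups, at 229, 719 and 431 normalised counts in untreated and 498, 977 and 503 in treated SFs. The other 3 did not follow it: Scx stood at 124, 64 and 98 against 143, 151 and 100, Mkx at 47, 71 and 23 against 63, 32 and 20, and Thbs4 at 1255, 1720 and 1509 against 1384, 1759 and 3001. Whether the share of tendon cells had a part in these members was not tested.

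The summed level of the family changed less than its makeup. The 10 members together took 0.490 ± 0.0283% of the normalised counts of all genes in untreated and 0.537 ± 0.0957% in treated SFs (SD, n = 3), a difference of 0.0469 percentage points that lay within the spread of the treated libraries and was -0.00402 without amisulpride replicate 2. Bgn made up 67.7 ± 10.7% of the family in untreated and 55.0 ± 4.19% in treated SFs. Without Bgn the sum was 6239 ± 2312 normalised counts in untreated and 9955 ± 2136 in treated SFs. This was 0.160 ± 0.0619% and 0.243 ± 0.0627% of the normalised counts of all genes, and the groups overlapped on both scales. The share of Prelp in the family was 4.18 ± 2.09% and 9.30 ± 3.18%, that of Ogn 1.44 ± 0.555% and 4.22 ± 1.41%, that of Podn 0.335 ± 0.0582% and 1.37 ± 0.352%, and that of Fmod 20.3 ± 6.88% and 24.8 ± 4.79%. The groups overlapped in the shares of Bgn and Fmod but not in those of Prelp, Ogn and Podn. These shares are of counted reads from transcript ends, and a share falls where another member rises.

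**Figure D3:**
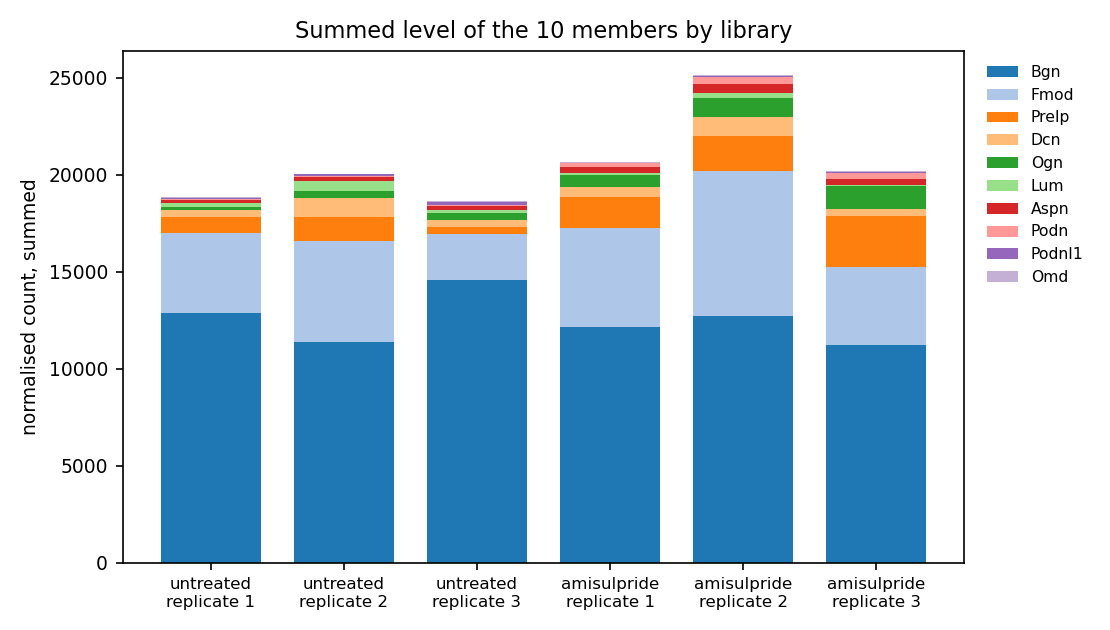
Normalised counts of the 10 members stacked for each library (y axis, linear from 0), coloured by member. Bgn and Fmod fill most of every bar, the Prelp and Ogn segments are thicker in the 3 amisulpride bars, and the tallest bar is amisulpride replicate 2 at 25130 against 18626 to 20027 in untreated libraries.

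Some members lie beside one another. Aspn, Omd and Ogn lie within 80.1 kb of chromosome 13, Dcn and Lum within 93.2 kb of chromosome 10, and Prelp and Fmod within 138 kb of chromosome 1. On chromosome 13 the log2 fold changes were 1.03 for Aspn, 0.80 for Omd and 1.77 for Ogn. The chromosome 1 pair had 1.44 for Prelp and 0.53 for Fmod, and the chromosome 10 pair 0.16 for Dcn and -1.07 for Lum. All 5 members of the chromosome 13 and chromosome 1 groups thus had a value above 0. Ecm2, a neighbouring SLRP on chromosome 13 outside the 10 members, had -0.53 ± 0.65 (SE). Its values were low, at 14, 12 and 5 normalised counts in untreated and 12, 4 and 5 in treated SFs. The GC content of the genes, as the authors give it, was lowest for Ogn, at a fraction of 0.362, and highest for Podnl1, at 0.551.

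Podn overlaps Scp2, the gene of a peroxisomal sterol carrier protein, on the same strand, so their reads were compared. The gene spans share 52607 bases, but of 8 Podn transcripts in GENCODE M21 only 1, Podn-201, reaches into Scp2. Of its exon bases, 43 lie inside the span of Scp2 and 0 fall on an Scp2 exon. The 3′ ends, where this kit reads, lie 29048 bases apart, and the last 500 bases of each transcript, 1141 for Podn in all, shared 0 bases with any exon of Scp2. The gene model length behind the authors' values per length was 4849 bases for Podn, against a gene span of 81655, so the model is close to the exons and far from the whole span. Scp2 stood at 366, 342 and 367 normalised counts in untreated and 544, 400 and 424 in treated SFs. All treated values were above the untreated ones, with a log2 fold change of 0.33 ± 0.23 (SE), less than that of Podn. The sum of both genes was 417, 419 and 432 against 753, 745 and 771, a log2 fold change of 0.84 ± 0.22 (SE), and Podn made up 15.2% of this sum in untreated SFs. The sum varied less than either gene. In treated SFs its SD was 13.3, against 79.1 for Podn and 77.1 for Scp2. In untreated SFs it was 8.14, against 13.01 and 14.15. Among treated libraries, replicate 1 had the lowest Podn and the highest Scp2 value. Whether the steadier sum came from reads shared between the genes was not tested.

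**Figure D4:**
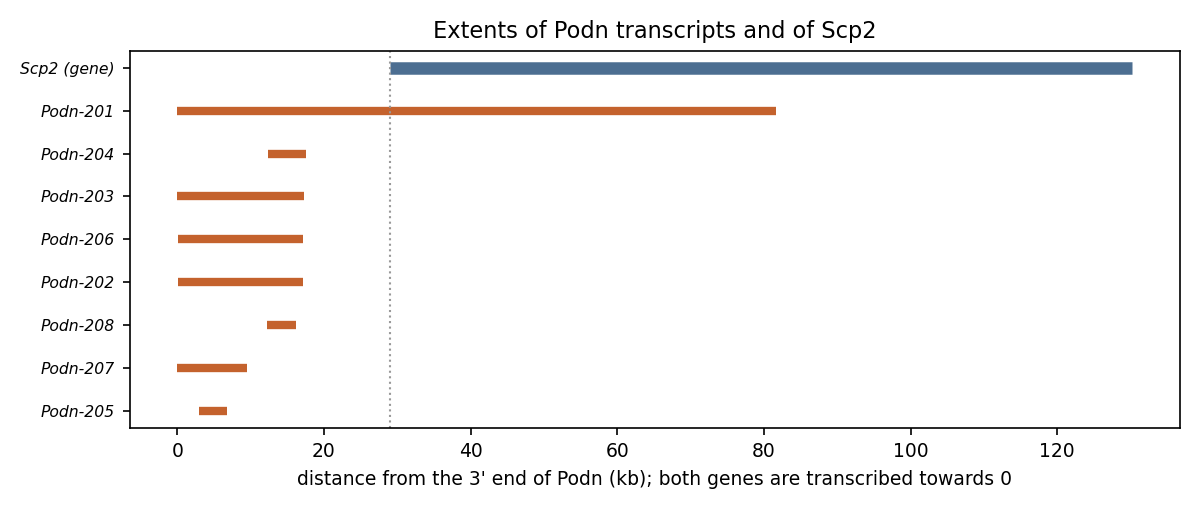
Extents of the 8 annotated Podn transcripts (orange, introns included) and of the Scp2 gene (blue), by distance in kb from the 3′ end of Podn. Both genes are transcribed towards 0, only Podn-201 crosses the end of Scp2 (dotted line), and the 3′ ends of the genes are 29048 bases apart.

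Podn also overlaps Gm23354, a small nuclear RNA gene, on the same strand. Gm23354 was at 0 in every library and shares 0 exon bases with Podn. The remaining overlaps were on the opposite strand, and no strand setting of the counting is given in the sources used here. Cenpp, a centromere protein gene, spans Ogn, Omd and Aspn and stood at 2 to 11 normalised counts, with 7 exon bases (0.297% of those of Aspn) in common with Aspn and 0 with Ogn and Omd. Prelp shares 350 of its exon bases (9.68%) with the antisense gene Gm15851, which was at 0 in every library, and 0 within the transcript ends.

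Genes with patterns like those of Podn and of Bgn, the member with the highest mean, were sought over the 6 libraries, by Pearson's r of log2(normalised count + 1) and without a test. The 6 points share the difference between the groups and the depth of each library. For Podn they were Nln (r = 0.996), a mitochondrial peptidase gene, Vldlr (0.995), a lipoprotein receptor gene, Mill2 (0.994), Dlgap4 (0.993) and Nqo1 (0.991), a quinone reductase gene. Nqo1 stood at 31, 40 and 38 normalised counts in untreated and 65, 92 and 106 in treated SFs, and Vldlr at 59, 72 and 65 against 93, 116 and 118. Each was higher in all treated libraries, as Podn was. For Bgn they were Sema4b (0.995), Ndufs8 (0.972), Fnip1 (0.969), Sars (0.967) and Gab2 (0.961). These had log2 fold changes of -0.64 to -0.14, and each was highest in untreated replicate 3, the library in which Bgn was highest.

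The other genes of the SLRP pathway were examined in 7 lists, 111 genes in all, of which 86 passed the filter and were tested with limma. Of these, 2 were higher and 12 lower by the study thresholds (2.69% and 3.01% of all genes), and 1, Col5a3, was lower with an adjusted p under 0.05 in limma (0.19% of all genes). With the replicate block 12 had an adjusted p under 0.05, while 2 and 13 passed the study thresholds upwards and downwards (3.18% and 3.43% of all genes). The block rests on a pairing read from these same libraries, so its adjusted p-values are given only as an alternative. The median log2 fold change of the 86 was -0.11. The higher count ranged from 1 to 4 as single libraries were left out: it was 1 without untreated replicate 3, amisulpride replicate 2 or amisulpride replicate 3, and 4 without amisulpride replicate 1.

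Other SLRPs were low. Of 8, only Tsku, encoding a secreted modulator of BMP and Wnt signals, and Ecm2, a neighbour of the chromosome 13 members, passed the filter, and neither passed the study thresholds. Tsku stood at 251, 121 and 105 normalised counts in untreated and 106, 74 and 91 in treated SFs, which overlapped. Kera and Chad, which belong to cornea and cartilage, were under the floor in all libraries, and Epyc, Optc, Nyx and Chadl did not pass the filter, with Chadl at 2 to 17.

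Enzymes that build chondroitin and dermatan sulfate chains had a median log2 fold change of -0.05 over 23 tested of 26. Of these, 1 was lower by the study thresholds and 0 higher. It was Chst12, a chondroitin 4-sulfotransferase gene, at 233, 144 and 113 normalised counts in untreated and 105, 58 and 54 in treated SFs, without overlap. Its log2 fold change was -1.16 ± 0.35 (SE). The adjusted p was 0.228 in limma and 0.0354 with the replicate block. Without untreated replicate 1 the log2 fold change was -0.88.

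Of 5 genes for keratan sulfate chains, 3 were tested, and 1 passed the study thresholds in each direction. Chst1, a keratan sulfate 6-sulfotransferase gene, was lower, at 225, 151 and 97 normalised counts in untreated and 58, 43 and 20 in treated SFs. The groups did not overlap, and the log2 fold change was -1.98 ± 0.42 (SE). In limma the adjusted p was 0.0769, and with the replicate block it was 0.00155. B4galt4, a galactosyltransferase gene of the same chains, was higher, at 12, 9 and 7 against 21, 32 and 20, also without overlap. Its log2 fold change was 1.29 ± 0.46 (SE). In limma its adjusted p was 0.303, and with the replicate block it was 0.207.

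Proteoglycans outside the SLRP family had a median of -0.12 over 21 tested of 27, with 1, Srgn, lower by the study thresholds and 0 higher. Srgn encodes serglycin of leukocyte granules. It stood at 38, 61 and 11 normalised counts in untreated and 7, 20 and 7 in treated SFs, which overlapped. Gpc4 and Prg4 were among the genes under the study thresholds whose groups did not overlap. Gpc4 stood at 316, 405 and 485 against 758, 810 and 802, a log2 fold change of 0.99 ± 0.24 (SE). Its adjusted p was 0.128 in limma and 0.0489 with the replicate block. Prg4 stood at 915, 859 and 733 against 426, 304 and 653, with -0.92 ± 0.29 (SE). For Prg4 the adjusted p was 0.251 in limma and 0.105 with the block. The members with the highest means were Gpc1, encoding a cell-surface heparan sulfate proteoglycan, with a log2 fold change of -0.65 ± 0.34 (SE), and Cd44, the hyaluronan receptor gene, with -0.31 ± 0.26 (SE); neither passed the study thresholds, and both had overlapping groups.

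The collagens that SLRPs bind had a median of 0.10 over 12 tested of 14, with 2 lower by the study thresholds and 0 higher. Col5a3, encoding a chain of a minor fibrillar collagen, fell from 1337, 867 and 1481 normalised counts to 374, 300 and 310. No treated value came near an untreated one, and the log2 fold change was -1.87 ± 0.27 (SE). The adjusted p in limma was 0.0156. Col6a3, encoding a chain of microfibrillar collagen VI, stood at 731, 550 and 883 against 431, 270 and 288, a log2 fold change of -1.13 ± 0.28 (SE). Col6a3 had an adjusted p of 0.13 in limma and of 0.0298 with the replicate block, and its log2 fold change without untreated replicate 3 was -0.97.

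Growth factors and receptors that SLRPs bind had a median of -0.19 over 13 tested of 17, with 1 higher and 2 lower by the study thresholds. Bmp4, a BMP ligand gene, was higher, at 176, 113 and 64 normalised counts in untreated and 215, 218 and 274 in treated SFs. The groups did not overlap, and the log2 fold change was 1.10 ± 0.35 (SE). The adjusted p was 0.243 in limma and 0.0844 with the replicate block, and without untreated replicate 3 the log2 fold change was 0.73. Bmp2, of the same ligand family, was lower, at 17, 21 and 27 against 0, 1 and 2, all of which were at or under the floor of 3 reads in their library. Against the highest floor of a treated library, 5.37, Bmp2 was at least 4.04-fold lower. Its adjusted p was 0.0646 in limma and 0.0142 with the replicate block. Cd14, a Toll-like receptor co-receptor gene that is also one of the leukocyte markers, stood at 121, 69 and 76 against 47, 25 and 13, a log2 fold change of -1.74 ± 0.44 (SE). Cd14 had an adjusted p of 0.144 in limma and 0.012 with the replicate block. Tlr2 and Tlr4, the receptors of soluble biglycan, had log2 fold changes of -0.22 and -0.41 and did not pass the study thresholds.

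Proteases that process or cut SLRPs had the lowest median of the 7 lists, -0.67 over 12 tested of 14, with 5 lower by the study thresholds and 0 higher. Mmp3, the stromelysin 1 gene, stood at 4166, 5120 and 2530 normalised counts in untreated and 666, 1118 and 1745 in treated SFs. The groups did not overlap, and the log2 fold change was -1.79 ± 0.37 (SE). Mmp3 had an adjusted p of 0.0764 in limma and 0.0091 with the replicate block. Adamts4, an aggrecanase gene, stood at 77, 56 and 125 against 27, 23 and 34, a log2 fold change of -1.52 ± 0.36 (SE). Adamts4 had an adjusted p of 0.113 in limma and 0.0196 with the replicate block. The other 3, Mmp9, Mmp13 and Htra1, had overlapping groups, and their log2 fold changes were -1.70, -1.31 and -1.23. Each treated library was lower than the untreated one of the same number in all 3 genes. Their adjusted p was 0.265, 0.254 and 0.304 in limma and 0.00371, 0.0105 and 0.0284 with the replicate block. Mmp2 and Ctsk did not pass the study thresholds, with log2 fold changes of 0.15 and -0.34.

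**Figure D5:**
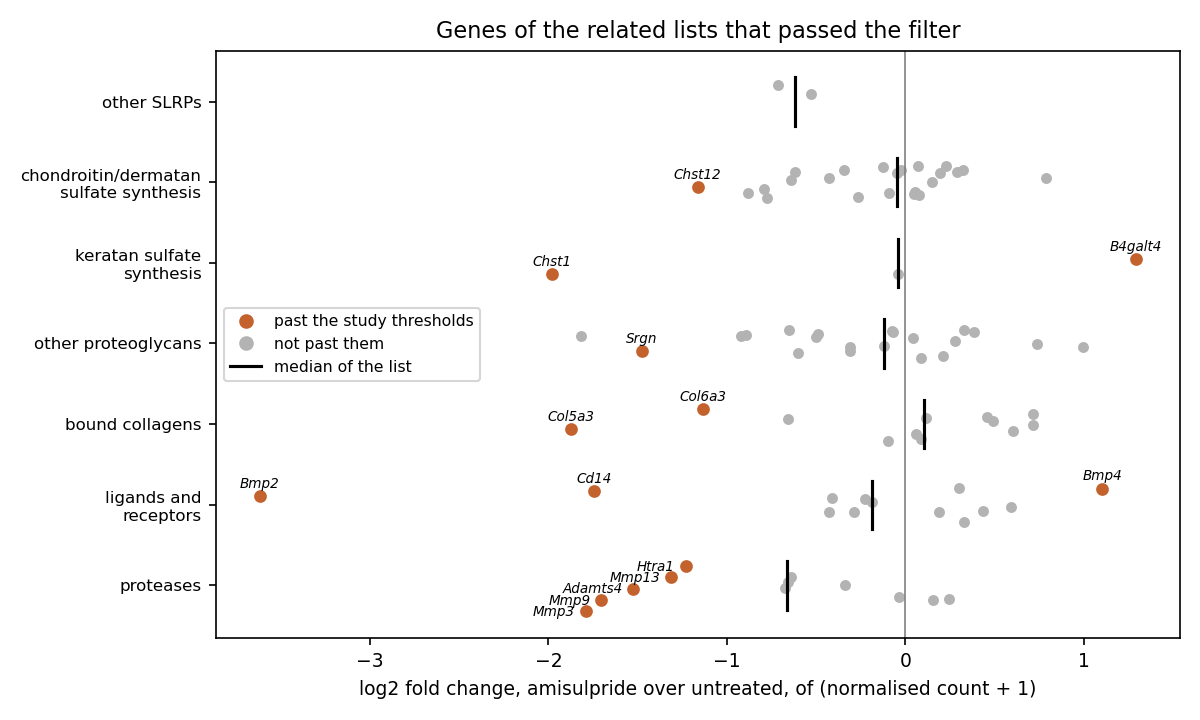
Log2 fold change, amisulpride over untreated, of (normalised count + 1) for the 86 tested genes of the related lists (x axis), by list (y axis, points spread vertically for legibility only); orange points passed the study thresholds and black bars are list medians. All 5 called proteases lie left of 0, B4galt4 and Bmp4 are the genes called higher, and the fitted value of Bmp2 is no bound since its treated libraries are at or under the floor.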

How the data were processed

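Expression was measured by 3′ mRNA sequencing (QuantSeq, Ion Proton) in 3 untreated and 3 amisulpride-treated SF libraries. The authors mapped reads to mm10 with TopHat2 and then Bowtie2, counted them per gene with GenomicRanges and normalised them with DESeq through metaseqr; versions are not given in the sources used here. The deposited values are a score, taken here to be counts that were scaled with 1 factor for each library and then rounded. The deposited values per gene model length, also a score, served only for levels per kb, and the authors deposited GC content as a fraction. Another 6 columns of per-library values were not used, nor were the authors' fold changes and p-values.

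Groups, taken from the treatment label, were tested by limma 3.58.1 under R 4.3.3 (trend, two-sided, Benjamini-Hochberg over 12614 genes) on log2(normalised count + 1), for genes with at least 10 in at least 3 libraries; fold changes on this scale understate those of low genes. An exact permutation test with 3 libraries per group cannot go below 0.1 and was not used. The value of 1 read in each library was estimated by maximum likelihood from the steps between low values, which gave approximate reads and floors; without molecular identifiers, they cover no error beyond that of counting. The methods call the libraries biological replicates. Correlations of deviations from the group means were 0.229, 0.240 and 0.201 between libraries of the same replicate number and -0.149 to -0.0777 otherwise, so the numbers were taken to pair libraries, a pairing that comes from the data and not from the labels. Deviations cancel out within a group, so the negative values are no separate evidence of pairing. Adjusted p-values with the replicate block rest on a pairing seen in these same libraries and may be too small.

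The members and lists were chosen with earlier results of these data known. From each list the text names up to 3 genes per direction that passed the study thresholds without overlap, or else the 2 with the highest mean; genes overlapping a member with a mean of at least 10; and the 5 protein-coding genes most correlated with Podn and Bgn. Cenpp, Gm15851, Gm23354, Tnmd, Srgn, Gpc4, Prg4, Tlr2, Tlr4, Mmp2, Ctsk, Mmp9, Mmp13, Htra1 and the markers fall outside this rule and were named after their values were seen. Fits were tested on simulated data. Alternatives were another pseudocount (5), no filter, 3 other scalings, weights per library, the replicate block, Podn summed with Scp2 and leaving out each library.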

Additional observations from a re-analysis of the deposited data

How the results depend on the processing

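Of 69 values of the whole family or lists under an alternative, 64 stayed within their spread or within 1.5 times the count, and 5 moved. Part of this was fixed in advance. For Podn and the summed level, leaving out 1 of 3 libraries cannot shift a difference of group means by more than the spread. Without the filter or with the replicate block, the fold changes of the members stay the same. The sign of 1 of the 64 turned, that of the difference in summed level, which was -0.00402 percentage points without amisulpride replicate 2. Of 130 values for single members, 120 kept their direction and call, 3 turned sign, 4 lost a call and 3 gained one. Dcn turned sign, to between -0.25 and -0.08, without untreated replicate 1, untreated replicate 3 or amisulpride replicate 2. Aspn lost its call in 3 cases and Prelp in 1, and Lum gained one in 2 cases and Omd in 1, as given beside their values. Of 176 values for related genes, 168 kept both and 0 turned sign. Leaving out 1 library took the number of related genes called higher to between 1 and 4, against 2 with all libraries. The log2 fold change was 0.84 for Podn summed with Scp2, against 2.19 for Podn alone. Podn made up 15.2% of this sum in untreated SFs, so the lower value follows from adding Scp2. It cannot show whether reads were shared. Bgn moved to -0.25 with quantile normalisation. Among the related genes, calls were lost in 8 cases: for Chst12 with weights per library and without untreated replicate 1 or amisulpride replicate 3, for B4galt4 without untreated replicate 3 or amisulpride replicate 2, for Bmp4 without untreated replicate 3 or amisulpride replicate 3, and for Col6a3 without untreated replicate 3. The cause was not tested. The replicate block, a paired fit, cannot change a fold change here, since each replicate number occurs once in both groups. The median of the members was therefore 0.66 again. The block changed the calls given beside the results and no other call of a member. Leaving out 1 library kept the median of the members between 0.42 and 0.84 and the number past the study thresholds between 4 and 6; without amisulpride replicate 3, the shallowest library, it was 5. With libraries scaled to the same total it was 4, as Aspn fell under the threshold. Where 1 library is left out, its group keeps 2. Depth limits Bmp2, Omd and B4galt4, whose values rest on few reads, and only 3 libraries per group limit the rest.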
